A study of Mus musculus with 27 samples.

Results

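Complex I of the respiratory chain (NADH:ubiquinone oxidoreductase) was examined through its nuclear genes in mouse bone marrow-derived macrophages that did or did not carry the mitochondrial chaperone TRAP1. The genes were all rows of the count table whose symbol has the form Nduf followed by a, b, c, s, v, ab or af and a number, with a mean of at least 1 CPM (read counts scaled to a common library size, here by TMM) over the 24 libraries of batch 1. Of 50559 rows in the table, 46 had such a symbol, all 46 reached that level, and all 46 passed the filter on low counts and were among the 13614 genes tested. They comprised 7 core subunits, 4 accessory subunits of the V and S series, 13 accessory subunits of the A series with Ndufab1, 13 accessory subunits of the B and C series that sit in the membrane arm, 8 assembly factors, and Ndufa4, which is named for complex I but is placed in complex IV.

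Complex I takes electrons from NADH, passes them along iron-sulphur clusters to ubiquinone, and pumps protons across the inner mitochondrial membrane. Its catalytic core is conserved from bacteria and is coded partly in the nucleus and partly in mitochondrial DNA, accessory subunits surround that core, and assembly factors bind intermediates and leave the finished enzyme. In macrophages, IL-4 stimulation is known to go with oxidative metabolism, and complex I is also a source of reactive oxygen species.

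The cells are given as coming from age-matched female C57BL/6 mice of 3 to 4 months, either WT or TRAP1 KO. They were grown for a week in medium with M-CSF before use. Unstimulated cells (Mφ) were compared with M2 cells, which were Mφ given 10 ng/ml of IL-4 over 24 h, and each kind was then kept for 48 h in medium conditioned by malignant peripheral nerve sheath tumour cells (MPNST-CM) or in DMEM as control medium. All groups share the bone marrow culture, and no source used here says how the TRAP1 deletion was made or how many mice gave the cells. RNA was measured by QuantSeq, which reads the 3′ end of each transcript. The labels do not say whether libraries of a group came from separate animals or cultures, so the p-values measure the spread between these libraries, which may be technical. Each group held 3 batch 1 libraries, and batch 2 added 1 library each to WT Mφ in control medium, KO M2 in control medium and KO M2 in MPNST-CM.

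Totals ran from 7037684 to 9089792 counts in batch 1 and from 9997776 to 11152362 in batch 2. Trap1 was at 0 counts in all 12 batch 1 KO libraries and at 0 and 2 counts in the batch 2 KO libraries, against 83 to 252 counts in WT. By rank correlation over all genes tested, all 24 batch 1 libraries were closest to their own group, but 2 of the 3 batch 2 libraries were not: the KO M2 library in MPNST-CM was closest to WT M2 in control medium (rho 0.983, against 0.950 with its own group), and the KO M2 library in control medium was closest to KO Mφ in MPNST-CM (rho 0.970 against 0.915). A gene is said to have passed, risen or fallen where its adjusted p (edgeR, Benjamini-Hochberg over all genes tested) was under 0.05. After a log2 fold change, ± gives a standard error worked back from the edgeR test. It is the absolute log2 fold change over the square root of the F statistic, not an SD of libraries. Results rest on batch 1, and values of the same fit with all 27 libraries are given beside the counts and beside most of the genes described by library. Batch 1 libraries of WT M2 in control medium are numbered 2 to 4, so that group holds no replicate 1. The other 7 groups hold replicates 1 to 3. The 7 first replicates had 1.26% to 2.76% of counts on mitochondrial rRNA and the other 17 libraries 0.647% to 1.57%. In 4 of those 7 groups the first replicate had the lowest summed complex I level. Xist, the RNA of the inactive X chromosome, ranged from 253 to 503 CPM across WT, from 0 to 1.14 CPM across the 12 KO libraries of batch 1, and reached 307 and 403 CPM in the KO libraries of batch 2. The labels give female mice for both genotypes, and the sex of the cells was not tested. In batch 1 genotype cannot be told apart from Xist level, nor from a difference in sex or X chromosomes if there was one. The summed level of 8 macrophage markers was 8734 to 11068 CPM in the group means, against at most 0.216 CPM for 4 T cell markers, 0.492 CPM for erythroid and megakaryocyte markers, 2.81 CPM for 5 fibroblast markers, 2.96 CPM for B cell markers, 7.53 CPM for Schwann lineage markers, 11.5 CPM for dendritic cell markers and 17.1 CPM for neutrophil and progenitor markers. Schwann lineage markers were highest in KO M2 cells in control medium (7.53 CPM, against 4.01 in WT). Highest in WT M2 cells in control medium were neutrophil and progenitor markers (17.1 CPM, against 11.7 in KO). In batch 2 the latter reached 369 CPM in the KO M2 library in MPNST-CM and 50.1 CPM in the WT Mφ library, both part of the 27-library values. Of 4 IL-4 response markers, Arg1, Retnla and Chil3 were at 4.2 CPM or less in the Mφ libraries of batch 1. In M2 cells in control medium Retnla was at 1642 to 1691 CPM in WT and 1760.4 to 2071 CPM in KO, and Chil3 at 266 to 299 and 254 to 311 CPM. Arg1, the arginase that IL-4 is known to raise, was at 86.2 to 100.1 CPM in WT and 4.14 to 5.54 CPM in KO. In MPNST-CM Arg1 was at 585 to 673 CPM in WT and 222 to 236 CPM in KO M2 cells. Mrc1, the fourth marker, was in control medium at 713 to 747 CPM in WT Mφ and 749 to 756 CPM in WT M2 cells. In KO it was at 678 to 746 CPM in Mφ and 515 to 596 CPM in M2 cells of batch 1, so it did not mark IL-4 treatment there. In MPNST-CM Mrc1 was at 1167 to 1344 CPM in WT Mφ and 2537 to 2655 CPM in KO Mφ. In M2 cells of batch 1 in MPNST-CM it was at 2754 to 2966 CPM in WT and 3283 to 3763 CPM in KO. The batch 2 KO M2 library in control medium had Retnla at 24, Chil3 at 1.82 and Arg1 at 2.29 CPM, all below the other libraries of its group. The batch 2 KO M2 library in MPNST-CM had Retnla at 4462 CPM, against 213 to 236 CPM in its group in batch 1. Its Chil3 was at 498 CPM, against 110 to 123 CPM. Its Arg1 was at 48.4 CPM, below the 222 to 236 CPM of batch 1. Whether the media of these batch 2 KO libraries were exchanged was not tested, and both libraries enter the 27-library values. Markers of dividing cells summed to 980.0 CPM in WT Mφ in control medium and 1173 CPM in MPNST-CM, but to 435 and 109.8 CPM in KO Mφ. In M2 cells they summed to 307 CPM (WT) and 365 CPM (KO) in control medium, and to 602 CPM (WT) and 137 CPM (KO) in MPNST-CM. Their part in the results was not tested.

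Summed over the 46 genes, complex I transcripts were highest in WT M2 cells in control medium, at 5378 ± 38.4 CPM (mean ± SD, n = 3), where the 3 libraries lay at 5398, 5334 and 5403 CPM. KO M2 cells in the same medium had 4385 ± 197 CPM, close to WT Mφ (4377 ± 203 CPM) and KO Mφ (4401 ± 274 CPM) in control medium. In MPNST-CM the sum was 4884 ± 35.3 CPM in WT Mφ and 4913 ± 211 CPM in KO Mφ, and 4484 ± 161 CPM in WT M2 and 4548 ± 149.8 CPM in KO M2. The WT M2 libraries in control medium were thus above all 21 other batch 1 libraries, and the other groups lay within 4094 to 5036 CPM. In batch 2 the WT Mφ library in control medium was at 4207 CPM, the KO M2 library in control medium at 4713 CPM and the KO M2 library in MPNST-CM at 5208 CPM.

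**Figure D1:**
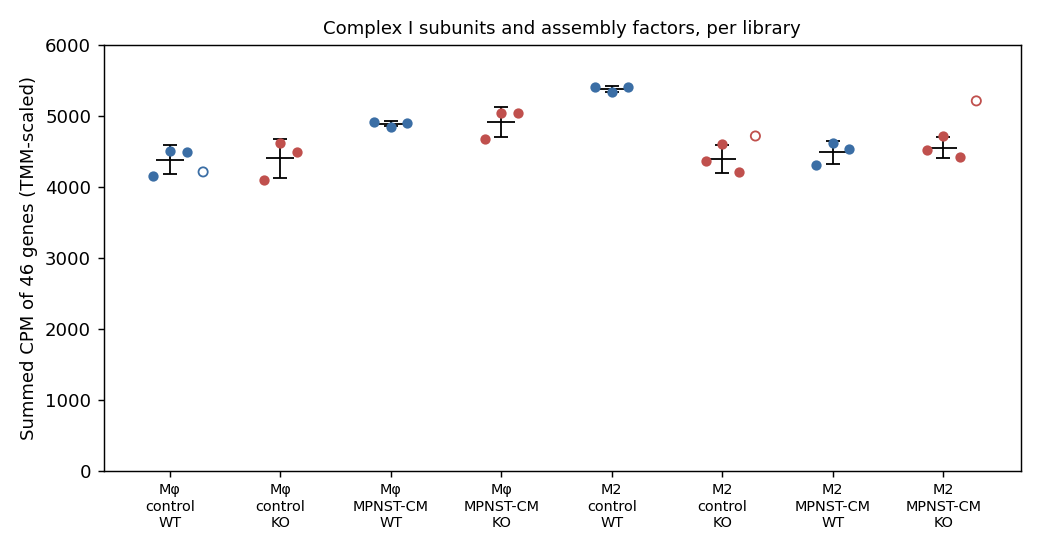
Summed TMM-scaled CPM of the 46 genes (vertical axis, from 0) in every library, by group (horizontal axis). Filled points are the 3 batch 1 libraries of a group, open points batch 2 libraries, black bars the mean and SD of batch 1, blue WT and red KO. WT M2 cells in control medium (5378 ± 38.4 CPM) stand above the other 7 groups in batch 1.

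The order of those sums depends on how libraries are scaled. As a plain share of each library's counts, the 46 genes took 0.485% to 0.490% in WT M2 cells in control medium, 0.377% to 0.411% in KO M2 cells in control medium, 0.456% to 0.491% in WT Mφ in control medium and 0.528% to 0.538% in WT Mφ in MPNST-CM. On that scale KO M2 cells in control medium again lay below WT M2 cells without overlap, while WT M2 cells were within the range of WT Mφ in control medium and below WT Mφ in MPNST-CM. Counts of genes that passed in M2 against Mφ are accordingly given on both scales, and values of single genes on the TMM scale unless said otherwise.

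By class, the accessory B and C subunits carried the most transcript (2030.1 ± 20.6 CPM in WT M2 cells in control medium), followed by the A series (1968 ± 14.1 CPM), the core (659.7 ± 7.54 CPM), the V and S accessory subunits (326 ± 3.11 CPM) and the assembly factors (140.5 ± 6.92 CPM). These are levels in CPM of 3′ reads, which are counted once per transcript end and were not divided by length. Ndufa2, an accessory subunit of the matrix arm, had the highest mean over the 24 libraries (294 CPM), and its values ran from 225 CPM in a WT M2 library in MPNST-CM to 388 CPM in a KO Mφ library in MPNST-CM. Ndufaf6, an assembly factor, had the lowest (7.11 CPM), ran from 4.84 to 9.21 CPM, and passed the test in none of the 12 comparisons of groups. Of the 46 genes, 40 passed it in at least 1 of those comparisons and 6 in none, the others being Ndufaf1, Ndufb4, Ndufb10, Ndufs3 and Ndufs5.

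**Figure D2:**
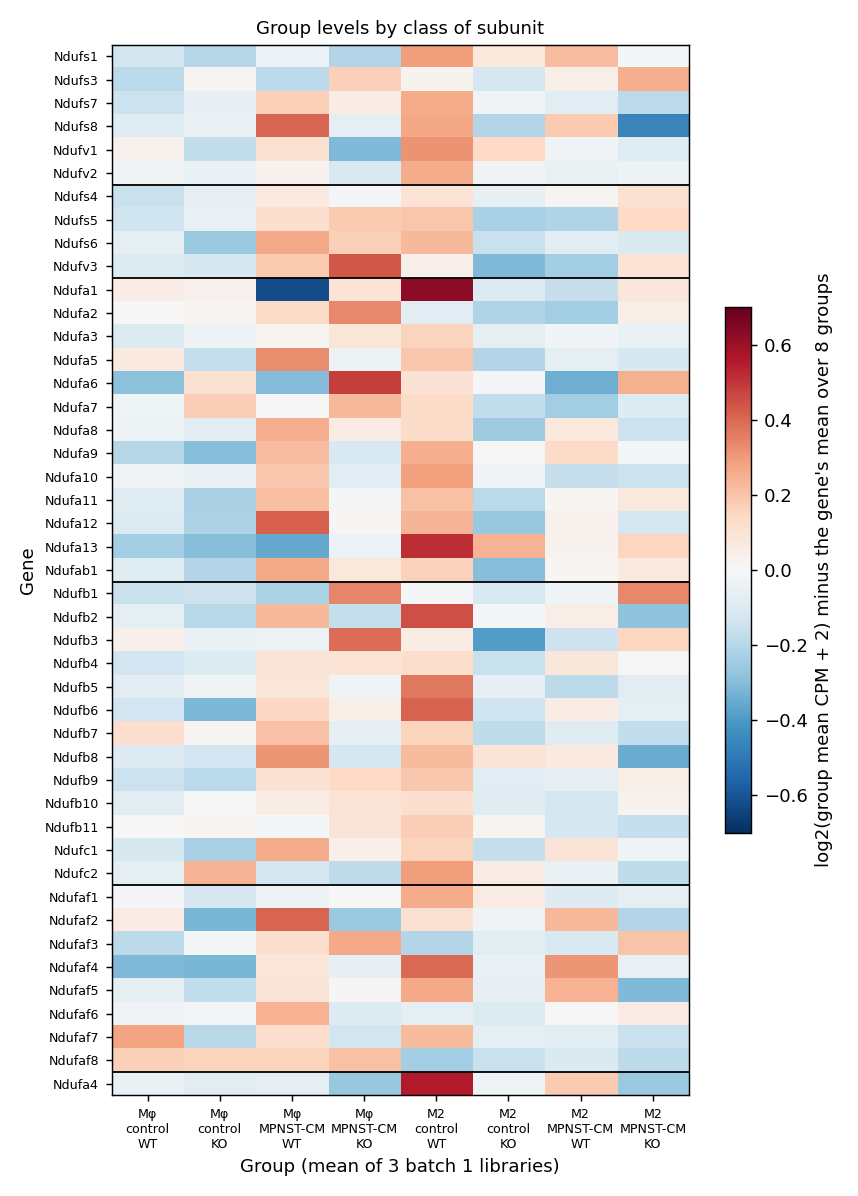
Level of the genes, all but 1 of the 46 (rows, by class: core, accessory V and S, accessory A, membrane arm B and C, assembly factors, Ndufa4) in each group (columns, mean of 3 batch 1 libraries). Colour is log2(group mean CPM + 2) minus the gene's mean over the 8 groups. The column of WT M2 cells in control medium is red for most subunits.

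Promoter windows from RefSeq (GRCm38.p6, 250 bases before to 50 after the transcript start) were found for 41 of the 46 genes, as 43 windows. Letters of binding motifs of factors known for nuclear genes of the respiratory chain were searched on both strands, with overlapping matches counted. The NRF1 letters GCATGCGC were in 5 of 43 windows (11.6%) against 2.71% of all 32851 promoter windows, the ETS-family letters CCGGAAG (as GABP reads them) in 6 (14%, against 8.86%) and the YY1 letters AAGATGG in 8 (18.6%, against 6.34%). Any of the 3 was in 18 windows (41.9%), against 16.6% of all windows. Among the 22 genes that were lower in KO than in WT M2 cells in control medium (below), 9 of 21 with a window held any of them, as did 9 of 20 of the remaining genes. These are matches of letters in a window and were not tested as sites. The following windows are printed because the comparisons below turn on their genes: Ndufaf4 and Ndufa13 gave the largest differences between M2 and Mφ, Ndufa6 was the gene raised most in KO, and Ndufs8 was lower in KO in 3 of the 4 comparisons of genotype. Capitals mark the letters named above (NRF1 in Ndufaf4 and Ndufa6, ETS in Ndufs8), and the window of Ndufa13 held none.
Ndufaf4 (chr4:24897833-24898132, plus strand): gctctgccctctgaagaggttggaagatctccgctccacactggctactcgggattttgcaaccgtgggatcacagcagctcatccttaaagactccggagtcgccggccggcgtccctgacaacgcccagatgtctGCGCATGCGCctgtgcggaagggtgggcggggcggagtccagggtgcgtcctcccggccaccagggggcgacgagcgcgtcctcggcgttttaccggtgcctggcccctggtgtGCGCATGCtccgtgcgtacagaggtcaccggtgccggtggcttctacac
Ndufa6 (chr15:82354242-82354541, minus strand): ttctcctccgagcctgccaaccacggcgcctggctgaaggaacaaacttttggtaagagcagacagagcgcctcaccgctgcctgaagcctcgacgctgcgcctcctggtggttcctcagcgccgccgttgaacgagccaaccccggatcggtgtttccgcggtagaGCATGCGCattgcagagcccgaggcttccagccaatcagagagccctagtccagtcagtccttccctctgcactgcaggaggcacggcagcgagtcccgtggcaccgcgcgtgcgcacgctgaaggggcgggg
Ndufs8 (chr19:3912725-3913024, minus strand): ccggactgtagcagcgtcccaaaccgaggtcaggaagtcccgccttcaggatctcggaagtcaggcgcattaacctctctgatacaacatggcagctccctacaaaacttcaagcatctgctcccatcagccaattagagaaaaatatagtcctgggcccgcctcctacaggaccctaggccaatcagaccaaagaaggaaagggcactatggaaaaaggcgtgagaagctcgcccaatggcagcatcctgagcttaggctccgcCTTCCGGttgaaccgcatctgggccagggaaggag
Ndufa13 (chr8:69901971-69902270, minus strand): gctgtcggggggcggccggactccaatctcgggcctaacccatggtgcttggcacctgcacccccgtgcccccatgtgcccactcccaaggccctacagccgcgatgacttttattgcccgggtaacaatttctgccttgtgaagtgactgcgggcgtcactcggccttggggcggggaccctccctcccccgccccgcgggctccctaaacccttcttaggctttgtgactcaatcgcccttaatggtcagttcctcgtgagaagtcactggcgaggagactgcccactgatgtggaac

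In M2 cells kept in control medium, 22 of the 46 genes were lower in TRAP1 KO than in WT and none were higher (edgeR, adjusted p under 0.05), while 7.87% of all genes tested were lower and 8.55% higher. The median log2 fold change was −0.29 for the 46 genes and 0.02 for all genes, and 44 of the 46 had a negative sign. Those that fell were 3 of 7 core subunits, 2 of 4 of the V and S accessory series, 7 of 13 of the A series, 8 of 13 of the B and C series, and Ndufa4. Of the assembly factors only 1 of 8 fell, where 7.87% of all genes did. In bulk RNA, fewer cells of a kind and less RNA per cell cannot be told apart. With all 27 libraries, in which the KO group has 1 more library, which resembled another group, 17 genes passed (8.29% of all genes in either direction).

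Among core subunits, Ndufs8, which carries iron-sulphur clusters, was at 75.9, 67.6 and 67.3 CPM in WT M2 libraries and at 52.6, 56.1 and 41 CPM in KO M2 libraries in control medium. All 3 KO libraries lay below all 3 WT libraries, with a log2 fold change of −0.49 ± 0.12 (edgeR adjusted p = 0.00359), and −0.47 (adjusted p = 0.0365) with all 27 libraries. Ndufb6, an accessory subunit of the membrane arm, was at 102, 104 and 105 CPM in WT and 70.9, 76.7 and 62.8 CPM in KO, and the groups again did not overlap. Its log2 fold change was −0.56 ± 0.13 (edgeR adjusted p = 0.00317) in the 24 libraries and −0.62 (adjusted p = 0.00881) in all 27. Ndufb5, in the same arm, stood at 202, 179.6 and 195 CPM in WT and 137, 158 and 132 CPM in KO. Its log2 fold change of −0.43 ± 0.08 (edgeR adjusted p = 0.000706) was −0.46 (adjusted p = 0.00408) with all 27 libraries. The largest fall was that of Ndufa4, the complex IV component, at 237, 228 and 296 CPM in WT and 211, 132 and 164 CPM in KO. Its libraries were widely spread in both groups but did not overlap, with a log2 fold change of −0.59 ± 0.17 (edgeR adjusted p = 0.0215) in 24 and −0.79 (adjusted p = 0.0226) in 27 libraries, and it no longer passed when only these groups were fitted or when the replicate number was added as a block.

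Among the assembly factors, Ndufaf4, which acts with Ndufaf3 early in the building of the matrix arm, was the member that fell in KO M2 cells in control medium. It stood at 27.9, 29.9 and 28 CPM in WT and 19.3, 19.2 and 23 CPM in KO, groups that did not overlap, with a log2 fold change of −0.48 ± 0.12 (edgeR adjusted p = 0.00504), and −0.48 (adjusted p = 0.0124) with all 27. The remaining subunits that fell ranged from −0.52 (Ndufa12) to −0.24 (Ndufc2) on the log2 scale, all without overlap between the groups. Scaling by library totals left this comparison at 23 genes lower and none higher (8.54% and 8.13% of all genes). With the libraries numbered 1 left out, an alternative chosen after the data had been seen, 29 genes passed. WT M2 in control medium has no library of that number, so in this comparison only the KO group lost one. The share of all genes that passed in that fit is not given here.

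**Figure D3:**
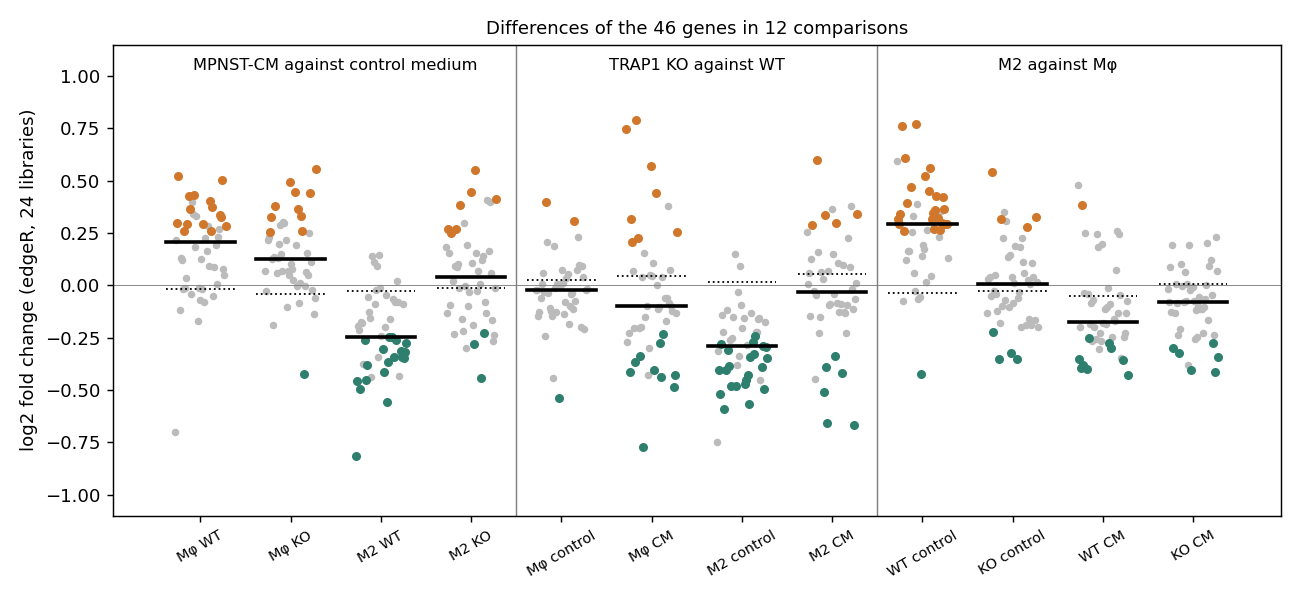
log2 fold change of each of the 46 genes (vertical axis) in 12 comparisons (horizontal axis: MPNST-CM against control medium, TRAP1 KO against WT, M2 against Mφ). Orange points passed the test as higher, green as lower and grey points did not pass; solid bars are the medians of the 46 genes and dotted bars those of all genes tested. The 22 green points of KO against WT in M2 cells in control medium and the 24 orange points of M2 against Mφ in WT stand out from the comparisons beside them.

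In MPNST-CM the genotypes of M2 cells differed in both directions, with 5 genes higher and 6 lower in KO (17.2% and 16.8% of all genes), both below the shares of all genes. In the 27-library fit 3 genes passed, against 12.2% of all genes. On library totals 3 genes were higher and 8 lower (15.4% and 18.2% of all genes). Ndufs8 was again lower, at 57, 73.7 and 67.3 CPM in WT and 43.3, 43.7 and 37.5 CPM in KO. The groups did not overlap, and the log2 fold change was −0.67 ± 0.12 (edgeR adjusted p = 5.00e-05) in 24 and −0.61 (adjusted p = 0.00501) in 27 libraries. Ndufaf5, the assembly factor that hydroxylates the core subunit Ndufs7, was at 12.4, 13.4 and 11.7 CPM in WT and 5.55, 9.14 and 8.97 CPM in KO. Its log2 fold change of −0.66 ± 0.21 (edgeR adjusted p = 0.0151) was −0.55 (adjusted p = 0.102) with all 27 libraries and then did not pass. Ndufaf2 and Ndufaf4 were lower as well (−0.51 and −0.39), while Ndufaf3 was higher (0.34). Thus 4 of the 8 assembly factors passed in batch 1, where 17.2% of all genes were higher and 16.8% lower.

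The gene most raised in KO was Ndufa6, a matrix-arm subunit that binds the acyl carrier protein Ndufab1. In M2 cells in MPNST-CM it was at 183, 202 and 197 CPM in WT and 279, 337 and 268 CPM in KO, without overlap. The log2 fold change was 0.60 ± 0.10 (edgeR adjusted p = 2.22e-05), and 0.52 (adjusted p = 0.00933) with all 27 libraries. In Mφ in MPNST-CM it was at 205, 202 and 194 CPM in WT and 302, 363 and 374 CPM in KO. That difference, 0.79 ± 0.10 (edgeR adjusted p = 2.76e-07) on the log2 scale and 0.77 (adjusted p = 0.000193) with all 27 libraries, was the largest of any of the 46 genes between the genotypes. In Mφ in control medium KO libraries (248, 281 and 269 CPM) lay above WT libraries (190.4, 205 and 211 CPM), by 0.40 ± 0.10 (edgeR adjusted p = 0.00439), although with all 27 libraries that value was 0.39 (adjusted p = 0.0645). In M2 cells in control medium it did not pass, at 269.5, 267 and 259.7 CPM in WT and 228, 283 and 222 CPM in KO, and the groups overlapped.

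Mφ in control medium showed few differences between genotypes: 2 genes higher and 1 lower in KO (8.63% and 7.96% of all genes), a median of −0.02, and 1 gene with all 27 libraries (6.22% of all genes). The count was 1 without the second replicate of KO Mφ in control medium and 5 without the second replicate of WT M2 in control medium, which enters through the shared spread, and on library totals 1 gene was higher and 6 lower (5.4% and 11.6% of all genes). Beside Ndufa6 and Ndufc2, the gene that passed was Ndufaf7, an assembly factor that is a methyltransferase, with 12.9, 16.1 and 16.7 CPM in WT and 10.6, 9.80 and 11 CPM in KO. WT libraries lay above KO libraries, with a log2 fold change of −0.54 ± 0.15 (edgeR adjusted p = 0.0125), and −0.57 (adjusted p = 0.0337) with all 27.

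Mφ in MPNST-CM showed 8 genes higher and 10 lower in KO (19.1% and 19.2% of all genes), and 12 with all 27 libraries (22.6%). On library totals 4 genes were higher and 16 lower (14.4% and 22.9% of all genes). Lower were the core subunits Ndufs8 (−0.48) and Ndufv1 (−0.43), which binds NADH and flavin, with Ndufb8, Ndufb2, Ndufb7, Ndufc1, Ndufa5, Ndufa9, Ndufa12 and the assembly factor Ndufaf2. Ndufaf2 is a paralogue of Ndufa12 and holds its place during assembly, and it stood at 20.5, 14.5 and 15.8 CPM in WT and 11.5, 9.23 and 9.03 CPM in KO. The groups did not overlap, with a log2 fold change of −0.77 ± 0.17 (edgeR adjusted p = 0.000784) in 24 and −0.79 (adjusted p = 0.00278) in 27 libraries. Higher were Ndufa6, Ndufa1, Ndufb1, Ndufb3, Ndufa13, Ndufv3, Ndufa7 and Ndufa2, from 0.79 down to 0.21.

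**Figure D4:**
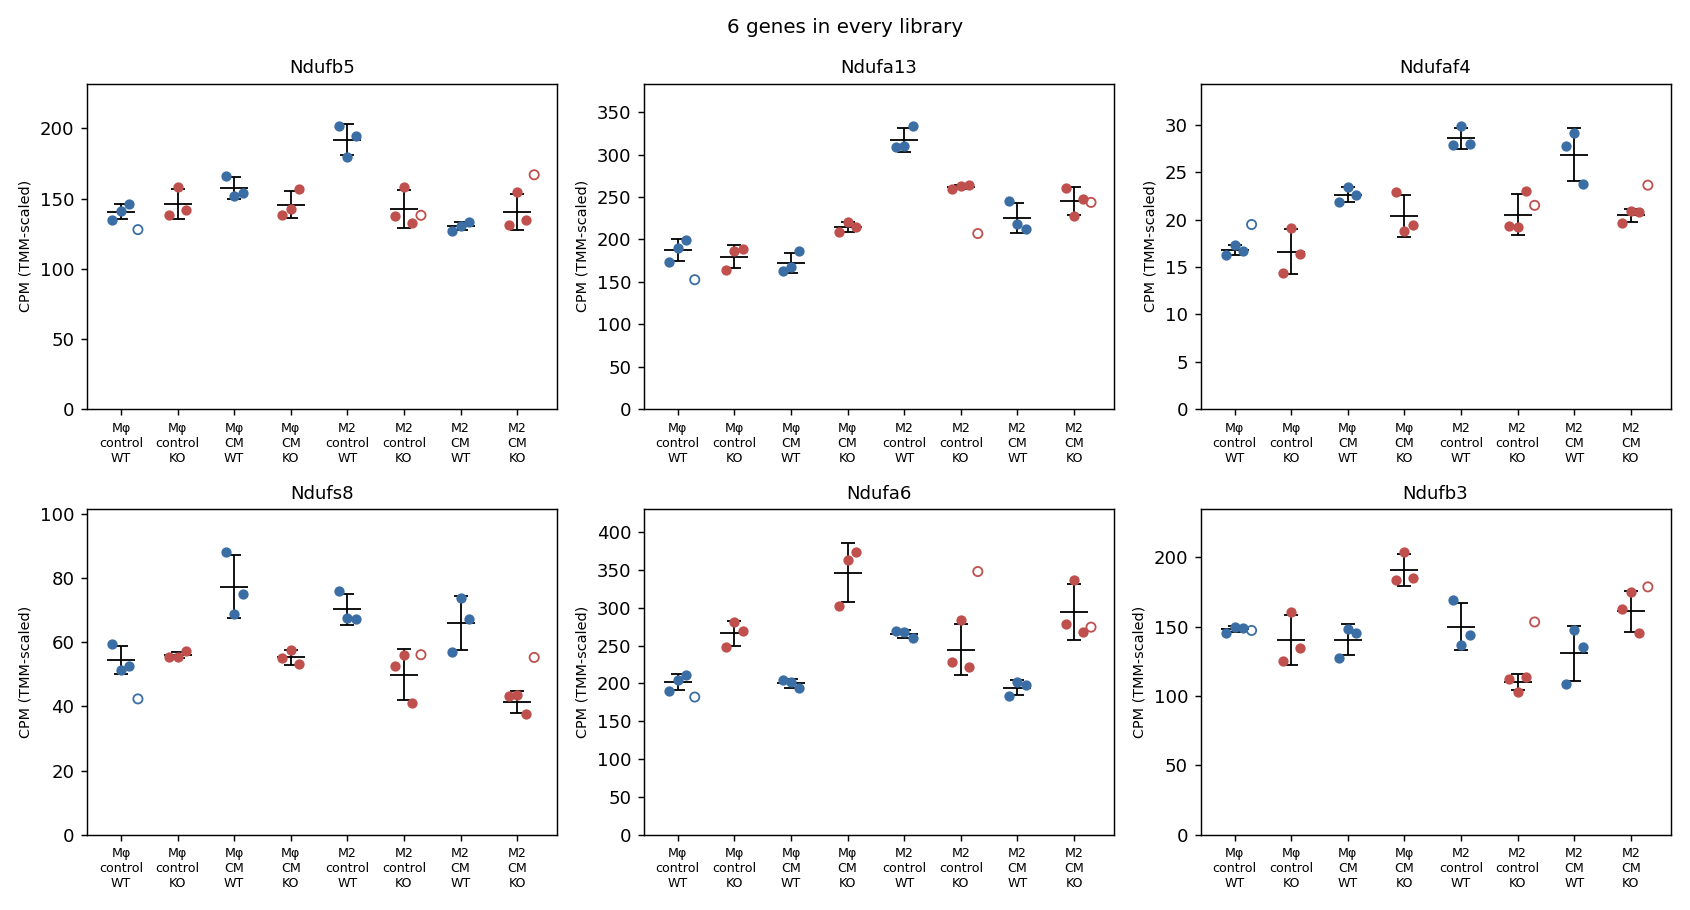
TMM-scaled CPM (vertical axes, from 0) of Ndufb5, Ndufa13, Ndufaf4, Ndufs8, Ndufa6 and Ndufb3 in every library by group, with filled points for batch 1, open points for batch 2, bars for mean and SD of batch 1, blue for WT and red for KO. Ndufb5 and Ndufa13 are highest in WT M2 cells in control medium, Ndufaf4 in WT M2 cells in both media, Ndufs8 is low in KO M2 cells and Ndufa6 is high in KO cells in MPNST-CM.

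Exposure to MPNST-CM went with opposite differences in WT Mφ and WT M2 cells. In WT Mφ 15 of the 46 genes rose and none fell (11.3% and 9.97% of all genes), with a median log2 fold change of 0.21 against −0.02 for all genes. The largest rises were those of Ndufa12, an accessory subunit of the matrix arm, and Ndufs8. Ndufa12 was at 74.6, 74.3 and 79.4 CPM in control medium and 121, 99.6 and 106 CPM in MPNST-CM, and Ndufs8 at 59.4, 51.4 and 52.7 and 88.2, 68.8 and 74.9 CPM. The groups did not overlap for either gene, with log2 fold changes of 0.52 ± 0.09 (edgeR adjusted p = 0.000113) and 0.50 ± 0.11 (edgeR adjusted p = 0.00195). Over all 27 libraries they were 0.52 (adjusted p = 0.00394) and 0.61 (adjusted p = 0.00742). Then 8 genes passed (6.97% of all genes). On library totals 14 genes were higher and 0 lower (11% and 10.1% of all genes). In batch 1, 8 passed without the first replicate of WT Mφ in control medium, 9 without its second, and 9 without the first replicate of WT Mφ in MPNST-CM. The first replicates had 2.46% and 1.95% of counts on mitochondrial rRNA, the most of their groups.

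In WT M2 cells 19 genes fell and none rose (13.3% and 11.2% of all genes), with a median of −0.25, but this count was not stable. It was 5 without the first replicate of WT M2 in MPNST-CM, 7 to 11 without each of the 3 WT M2 libraries in control medium, 8 without the third replicate of WT M2 in MPNST-CM, 12 without the first replicate of KO M2 in control medium, 6 on library totals (median of all genes 0.12; 1 gene was higher and 5 lower (17.6% and 7.89% of all genes)), and 3 with all 27 libraries (7.39% of all genes). That first replicate had 2.71% of its counts on mitochondrial rRNA, against 0.647% and 0.669% in the other libraries of its group, and its summed complex I level (4305 CPM) was the lowest of the group. The part of mitochondrial rRNA was not tested beyond this: without the 4 libraries above 2%, 9 genes passed.

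Of the 19, Ndufb5, Ndufa13 and Ndufa10 also passed with all 27 libraries. Ndufb5 was at 202, 179.6 and 195 CPM in control medium and 127, 131 and 133 CPM in MPNST-CM. The groups did not overlap, with a log2 fold change of −0.56 ± 0.09 (edgeR adjusted p = 1.27e-05) in 24 and −0.51 (adjusted p = 0.00282) in 27 libraries. Ndufa13, an accessory subunit also known as GRIM-19, was at 309.6, 309.9 and 334 CPM in control medium and 245, 218 and 212 CPM in MPNST-CM. It likewise passed in both fits, with −0.50 ± 0.08 (edgeR adjusted p = 2.94e-05) and −0.45 (adjusted p = 0.0106). None of the 8 assembly factors passed in this comparison, and their median was 0.04.

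In KO cells the response to MPNST-CM was mixed. KO Mφ had 10 genes higher and 1 lower (14.8% and 18.1% of all genes, median 0.13), and 8 genes with all 27 libraries (19.3%). Scaled by library totals, 12 genes were higher and 1 lower (15.1% and 17.6% of all genes). Ndufv3, an accessory subunit of the NADH-oxidizing tip, was at 127, 129 and 124 CPM in control medium and 182, 196 and 182 CPM in MPNST-CM. All MPNST-CM libraries were higher, by 0.56 ± 0.10 (edgeR adjusted p = 7.68e-05) on the log2 scale in 24 and 0.60 (adjusted p = 0.00262) in 27 libraries. Ndufb1 rose from 134, 187 and 168 to 192, 237 and 259.8 CPM, also without overlap, by 0.49 ± 0.15 (edgeR adjusted p = 0.0154) and, with all 27, 0.54 (adjusted p = 0.0192). Ndufc2, a membrane-arm subunit, was the gene that fell, from 218, 241 and 221 to 162, 168 and 179 CPM. Its change of −0.42 ± 0.08 (edgeR adjusted p = 0.000170) was −0.37 (adjusted p = 0.0676) with all 27 libraries. Of the 15 genes that rose in WT Mφ and the 10 that rose in KO Mφ, 4 were shared (Ndufb9, Ndufc1, Ndufs6 and Ndufv3), which is 26.7% of the first list and 40% of the second. Of all genes tested, 662 rose in both, which is 43.2% of the 1532 that rose in WT Mφ and 32.9% of the 2010 that rose in KO Mφ.

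KO M2 cells had 7 genes higher and 3 lower in MPNST-CM (16.7% and 20.2% of all genes, median 0.04), and 1 gene with all 27 libraries (6% of all genes). The count was 6 without the first replicate of KO M2 in MPNST-CM. On library totals, with a median of 0.12 for all genes, 17 genes were higher and 1 lower (23.9% and 15.6% of all genes). Ndufb3, an accessory subunit of the membrane arm, was at 112, 103 and 114 CPM in control medium and 162, 175 and 145 CPM in MPNST-CM. The groups did not overlap, with a log2 fold change of 0.55 ± 0.11 (edgeR adjusted p = 0.000176) in 24 and 0.47 (adjusted p = 0.0280) in 27 libraries. Ndufb1 was at 169, 163 and 170.3 and 231, 237 and 217 CPM (0.45 ± 0.15, edgeR adjusted p = 0.0251), and the value with all 27 libraries was 0.43 (adjusted p = 0.0628). Ndufb8 went down, from 246, 308 and 246 to 191, 194 and 203 CPM, the log2 fold change being −0.44 ± 0.09 (edgeR adjusted p = 0.000354), but in the batch 2 libraries of these groups it was at 214 CPM in control medium and 315 CPM in MPNST-CM, and with all 27 the value was −0.15 (adjusted p = 0.543).

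Treatment with IL-4 was compared next, M2 against Mφ. In WT cells in control medium 24 of the 46 genes were higher in M2 cells and 1 lower (19.1% and 18.1% of all genes), with a median log2 fold change of 0.29 against −0.03 for all genes, and 20 genes passed with all 27 libraries (26.9%). By class, 6 of 7 core subunits rose, 2 of 4 of the V and S series, 7 of 13 of the A series, 7 of 13 of the B and C series, Ndufa4, and 1 of 8 assembly factors. Scaled by library totals alone, the median of all genes went to −0.31 and that of the 46 genes to 0.02, and 3 genes were higher and 3 lower (11% and 36.2% of all genes). The genes were thus higher relative to the other genes of these cells, by 0.29 against −0.03, but not as a share of counts.

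Ndufaf4 and Ndufa13 rose most. Ndufaf4 was at 16.3, 17.3 and 16.7 CPM in WT Mφ and 27.9, 29.9 and 28 CPM in WT M2 cells, and Ndufa13 at 173, 189.7 and 199 and 309.6, 309.9 and 334 CPM. Neither overlapped between the groups, with log2 fold changes of 0.77 ± 0.12 (edgeR adjusted p = 6.98e-06) and 0.76 ± 0.08 (edgeR adjusted p = 1.72e-08) in 24 libraries and 0.70 (adjusted p = 7.39e-05) and 0.82 (adjusted p = 1.41e-06) in 27. On library totals they were 0.50 (adjusted p = 0.00111) and 0.49 (adjusted p = 1.24e-05). Ndufaf8, an assembly factor that stabilizes Ndufaf5, went the other way, from 50.5, 53.9 and 56.9 CPM in Mφ to 42.6, 41.4 and 36.3 CPM in M2 cells. Its log2 fold change was −0.42 ± 0.10 (edgeR adjusted p = 0.00158), and −0.42 (adjusted p = 0.0614) with all 27 libraries.

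KO cells in control medium had 4 genes higher and 4 lower in M2 than in Mφ (15.6% and 12.9% of all genes, median 0.01), and 3 with all 27 libraries (16.1%). Ndufa13 rose here too, from 164, 187 and 188 to 259, 263 and 264 CPM, by 0.54 ± 0.08 (edgeR adjusted p = 6.22e-06), and with all 27 libraries by 0.48 (adjusted p = 0.00172). The core subunits Ndufs1 and Ndufv1 and the accessory Ndufa9 were the others that rose. Ndufb3 fell from 125, 160.2 and 135 to 112, 103 and 114 CPM, the log2 fold change being −0.35 ± 0.11 (edgeR adjusted p = 0.0151), which was −0.20 (adjusted p = 0.343) with all 27. On library totals the median of all genes was −0.21, and 1 gene was higher and 14 lower (10.6% and 25.6% of all genes). The TMM count was 4 without the second replicate of KO M2 in control medium.

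After MPNST-CM most of the genes that passed were lower in M2 cells than in Mφ. In WT 1 gene was higher and 9 lower (11.9% and 13% of all genes, median −0.17), 4 passed with all 27 libraries (8.79%). On library totals, with a median of −0.17 for all genes, 1 gene was higher and 24 lower (9.03% and 21.4% of all genes). Ndufv3 was at 176, 136 and 157 CPM in Mφ and 103, 129.7 and 115 CPM in M2 cells (−0.43 ± 0.10 (edgeR adjusted p = 0.00214)), and Ndufa5, a matrix-arm subunit, at 158, 138 and 146 and 108, 115 and 112 CPM (−0.40 ± 0.09 (edgeR adjusted p = 0.000945)). The 27-library values were −0.41 (adjusted p = 0.0571) and −0.38 (adjusted p = 0.0319). Both had all M2 libraries below all Mφ libraries, whereas Ndufa13 was again higher in M2 cells, at 245, 218 and 212 against 163, 168 and 186 CPM (0.39 ± 0.08 (edgeR adjusted p = 0.000680)), and by 0.40 (adjusted p = 0.0189) with all 27. In KO none was higher and 6 were lower (6.71% and 4.47% of all genes, median −0.08), and 0 passed with all 27 libraries (3.46%). The count of 6 was 3, 2 and 3 without the first replicate of KO M2, the second of KO Mφ and the third of KO M2, all in MPNST-CM. On library totals 0 genes were higher and 10 lower (5.46% and 6.46% of all genes). Ndufs8 fell most, at 55, 57.7 and 53.2 CPM in Mφ and 43.3, 43.7 and 37.5 CPM in M2 cells (−0.41 ± 0.12 (edgeR adjusted p = 0.0193)). Ndufaf8 followed at 58.3, 54.2 and 53.3 and 39.5, 40.7 and 45 CPM (−0.40 ± 0.10 (edgeR adjusted p = 0.00763)). The 27-library values were −0.31 (adjusted p = 0.232) and −0.30 (adjusted p = 0.353).

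Whether these responses differed between groups was tested as interactions. In M2 cells the response to MPNST-CM was more positive in KO than in WT for 14 of the 46 genes and less positive for none (9.36% and 10.8% of all genes, median difference 0.25), with 8 from the A series, 3 from the V and S series and 3 from the B and C series. In the 27-library fit 1 gene, Ndufb5, passed (1.31% of all genes). The 14 were 7 without replicate 2 or 4 of WT M2 or replicate 3 of KO M2 in control medium, and 9 without replicate 3 of WT M2 in control medium, replicate 3 of WT M2 in MPNST-CM or replicate 2 of KO M2 in MPNST-CM. Ndufs5, an accessory subunit on the intermembrane side, had the largest called difference, with 38.2, 30.7 and 31.7 CPM in control medium and 20.5, 29.2 and 24.6 CPM in MPNST-CM in WT, and 25.2, 27.1 and 21.1 and 33.5, 38.8 and 24.1 CPM in KO. In WT the MPNST-CM libraries lay below those in control medium and in KO the groups overlapped, and neither response passed by itself (−0.43 ± 0.17 (edgeR adjusted p = 0.0623) in WT and 0.40 ± 0.17 (edgeR adjusted p = 0.0686) in KO). The difference of the responses was 0.83 ± 0.24 (edgeR adjusted p = 0.0139), and 0.76 (adjusted p = 0.110) with all 27 libraries. For Ndufb3, in WT at 169, 137 and 144 CPM in control medium and 109, 148 and 136 CPM in MPNST-CM, it was 0.75 ± 0.15 (edgeR adjusted p = 0.000659), and 0.61 (adjusted p = 0.114) with all 27.

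In Mφ the responses to MPNST-CM differed by genotype for 3 genes in each direction (8.18% and 11.5% of all genes, median −0.08) and for 0 with all 27 libraries (4.76%). The 6 were 2 without replicate 3 of WT Mφ in control medium, and 3 without replicate 2 of WT Mφ in control medium, replicate 3 of KO Mφ in MPNST-CM or replicate 3 of WT M2 in control medium. Ndufs8 rose in WT and stood at 55.4, 55.4 and 57.2 CPM in control medium and 55, 57.7 and 53.2 CPM in MPNST-CM in KO, a difference of −0.52 ± 0.16 (edgeR adjusted p = 0.0213) between the responses. Ndufb3 went from 125, 160.2 and 135 to 184, 204 and 185 CPM in KO and from 145, 149.7 and 149 to 128, 148 and 146 CPM in WT, a difference of 0.52 ± 0.15 (edgeR adjusted p = 0.0140). The 27-library values of these differences were −0.59 (adjusted p = 0.0965) for Ndufs8 and 0.54 (adjusted p = 0.119) for Ndufb3.

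A further pair of interactions was added after the data had been seen. The response to IL-4 in control medium was less positive in KO than in WT for 5 genes and more positive for none (3.22% and 3.86% of all genes, median −0.27): Ndufc2, Ndufs8, Ndufa6, Ndufa7 and Ndufb5, the last at −0.48 ± 0.12 (edgeR adjusted p = 0.0108) and, with all 27 libraries, −0.51 (adjusted p = 0.0563). Over all 27 libraries it passed for 0 (1.24% of all genes), and for 2 or 3 without replicate 2, 3 or 4 of WT M2, replicate 1 or 3 of KO M2 or replicate 2 of KO Mφ, all in control medium. The response of WT cells to MPNST-CM was less positive in M2 cells than in Mφ for 22 genes and more positive for none (6.91% and 5.24% of all genes, median −0.39), led by Ndufa12 (−0.73 ± 0.13 (edgeR adjusted p = 0.000220)) and Ndufb5 (−0.72 ± 0.12 (edgeR adjusted p = 0.000136)). Over all 27 libraries 4 genes passed (1.4%), Ndufa12 and Ndufb5 among them, and 14 passed without replicate 2 or 4 of WT M2 in control medium or replicate 1 of WT M2 in MPNST-CM.

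Of the genes on the X chromosome, Ndufa1, an accessory subunit of the membrane arm, varied widely. In WT M2 cells it was at 84.3, 73.6 and 85.8 CPM in control medium and 42.9, 47.6 and 47.9 CPM in MPNST-CM, in KO M2 cells at 64.6, 26.3 and 54.5 and 59.2, 63.1 and 42.6 CPM. In Mφ it was at 51.3, 56.3 and 53.9 and 18.8, 38.7 and 41.8 CPM in WT and at 52.4, 53.8 and 52.6 and 57.7, 60.6 and 48.6 CPM in KO, for control medium and MPNST-CM. In WT all MPNST-CM libraries lay below those in control medium in both cell types, with a log2 fold change of −0.82 ± 0.26 (edgeR adjusted p = 0.0269) in M2 cells, which did not pass with all 27 libraries, on library totals, without the filter on low counts or with the replicate block, and of −0.70 ± 0.26 (edgeR adjusted p = 0.0687) in Mφ, which did not pass. The M2 call was lost whichever single library of those 2 groups was left out. Between genotypes it was higher in KO Mφ in MPNST-CM (0.75 ± 0.26 (edgeR adjusted p = 0.0318), and 0.72 (adjusted p = 0.107) with all 27 libraries). In M2 cells in control medium the value was −0.75 ± 0.26 (edgeR adjusted p = 0.0578), and −1.0 (adjusted p = 0.0365) with all 27. Ndufb11, in the membrane arm, was steadier, at 61.7 to 88.9 CPM over the 24 libraries, and passed only as lower in MPNST-CM in WT M2 cells (−0.30 ± 0.10 (edgeR adjusted p = 0.0271)). It passed in none of the 4 comparisons of genotype. As a single gene it cannot show whether the Xist difference of batch 1 matters.

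Of the 7 complex I subunits coded in mitochondrial DNA, 4 were higher in M2 cells than in Mφ in WT (19.1% of all genes), and none was lower in KO M2 cells (7.87%), both in control medium. On library totals 3 were higher in M2 cells (11% of all genes). Summed, the 7 stood at 20642 ± 2119 CPM in WT Mφ and 37440.1 ± 3168 CPM in WT M2 cells in control medium, and at 44929 ± 3656 CPM in KO M2 cells in control medium. Higher in M2 cells were, among others, ND1 (0.97 ± 0.10 (edgeR adjusted p = 1.07e-08)) and ND5 (0.68 ± 0.09 (edgeR adjusted p = 6.90e-07)), at 0.70 (adjusted p = 3.51e-06) and 0.40 (adjusted p = 0.000453) on library totals. Between KO and WT M2 cells in control medium the 7 had a median log2 fold change of 0.34 (−0.19 to 0.99), where the 46 nuclear genes had −0.29. Of the 7, 1 was higher and none lower (8.55% and 7.87% of all genes). That gene was ND5, at 469, 418 and 383 CPM in WT and 597, 474 and 564 CPM in KO (0.37 ± 0.09 (edgeR adjusted p = 0.00464)), but the batch 2 KO library was at 127 CPM and with all 27 libraries the adjusted p was 0.952. With all 27 libraries the median for KO against WT M2 cells in control medium was −0.06 for the 7 (2 positive, 5 negative), where the 46 nuclear genes had −0.32. The batch 2 KO M2 library in control medium summed to 6048 CPM over the 7. In the 27-library fit ND1 alone of the 7 passed for M2 against Mφ.

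Assembly factors outside the Ndufaf family and regulators of mitochondrial biogenesis were taken as further lists. Of 12 other assembly factors 11 were tested, and in M2 against Mφ in WT in control medium 1 was higher and 2 lower, in KO against WT in M2 cells in control medium 1 higher and 2 lower, and in MPNST-CM against control medium none in WT M2 cells and 4 higher in KO M2 cells, where all genes had 16.7% higher. The shares of all genes were 19.1% higher and 18.1% lower in the first of these comparisons and 8.55% and 7.87% in the second. In the 27-library fit 1 rose and 1 fell in each of the first and the second, none passed in WT M2 cells and 2 rose in KO M2 cells. On library totals 1 was higher and 4 lower in M2 than in Mφ in WT. Tmem126b, part of the membrane-arm assembly complex, was at 9.43, 9.76 and 8.19 CPM in WT Mφ, 15.7, 21.9 and 18.5 CPM in WT M2 and 12.6, 15.4 and 13.1 CPM in KO M2 cells in control medium. It rose with IL-4 in WT by 1.04 ± 0.16 (edgeR adjusted p = 7.00e-06) and was lower in KO M2 cells, at −0.45 ± 0.16 (edgeR adjusted p = 0.0460). Over all 27 libraries these were 1.032 (adjusted p = 1.30e-05) and −0.52 (adjusted p = 0.0291), and the rise was 0.77 (adjusted p = 0.000313) on library totals. Of 10 regulators tested, 3 were higher and 1 lower in M2 than in Mφ in WT in control medium, and in KO against WT M2 cells in control medium 1 was lower (shares of all genes as above). Over 27 libraries 2 were higher and 1 lower in the first comparison and none passed in the second. On library totals 1 was higher and 3 lower in the first. The regulator lower in KO was Ppargc1b, a transcriptional coactivator of oxidative metabolism that IL-4 is known to raise. It stood at 7.47, 5.72 and 5.91 CPM in WT Mφ, 50.7, 46.8 and 40.9 CPM in WT M2 and 28.8, 31 and 24 CPM in KO M2 cells in control medium, and at 18.3, 14.4 and 16.7 CPM in WT M2 and 7.39, 5.87 and 8.59 CPM in KO M2 cells in MPNST-CM. The order of these groups was high in WT M2 cells in control medium, lower in KO, and lower again in MPNST-CM, with −0.72 ± 0.16 (edgeR adjusted p = 0.00156) for KO against WT and −1.49 ± 0.16 (edgeR adjusted p = 5.78e-08) for MPNST-CM over control medium among WT M2 cells. In the 27-library fit neither passed (adjusted p = 0.173 and 0.136). Summed complex I levels were 5378 ± 38.4 CPM in WT M2 and 4385 ± 197 CPM in KO M2 cells in control medium. In MPNST-CM they were 4484 ± 161 CPM in WT and 4548 ± 149.8 CPM in KO M2 cells. Apart from WT M2 cells in control medium, the libraries of these groups overlapped (4202 to 4594, 4305 to 4618 and 4418 to 4712 CPM). A link between Ppargc1b and the complex I genes was not tested. Nrf1, Gabpa and Yy1, whose motif letters were searched above, did not pass in KO against WT M2 cells in control medium. Ndufa4l2, the paralogue of Ndufa4, had 0 to 4 counts per library and was not tested.

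The other respiratory complexes are given in the order of 4 genes of complex II, 9 of complex III, 10 of complex IV and 15 of ATP synthase. In KO against WT M2 cells in control medium 1, 7, 6 and 8 were lower and none higher, with medians of −0.36, −0.33, −0.36 and −0.36 where complex I had −0.29. With all 27 libraries 1, 5, 4 and 5 passed as lower, and on library totals 1, 7, 6 and 10. Of all genes, 7.87% were lower and 8.55% higher, with 8.29% in either direction over 27 libraries and 8.54% lower on library totals. In M2 against Mφ in WT in control medium 3, 7, 10 and 11 were higher (19.1% of all genes). With all 27 libraries 3, 6, 10 and 7 were higher (26.9% of all genes in either direction), but on library totals 1, 2, 3 and 3 (11%). In MPNST-CM against control medium in WT M2 cells 3, 6, 6 and 8 were lower in batch 1 (13.3% of all genes). The 27-library fit left 0, 3, 2 and 0 (7.39% in either direction), and library totals 3, 4, 3 and 4 (7.89%). In WT Mφ 0, 3, 1 and 7 were higher in MPNST-CM in batch 1 (11.3% of all genes). With all 27 libraries 0, 2, 1 and 1 were higher (6.97% in either direction).

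**Figure D5:**
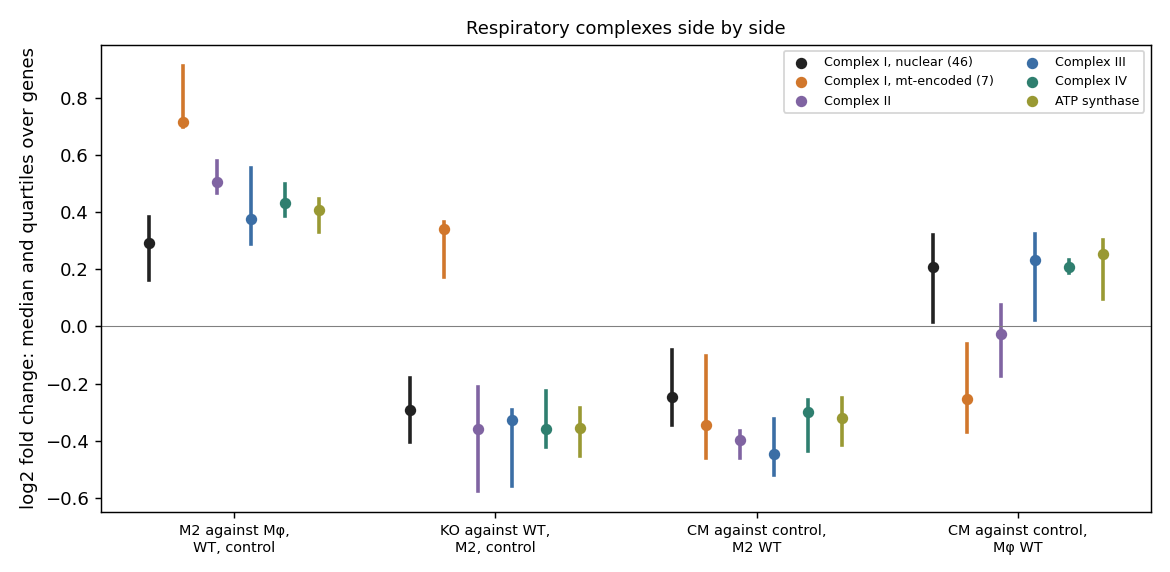
Median (points) and quartiles (lines) over genes of the log2 fold change on the TMM scale (vertical axis) for nuclear complex I genes, mitochondrially coded complex I genes, complexes II, III and IV and ATP synthase, in 4 comparisons (horizontal axis). The nuclear sets lie together, above 0 for M2 against Mφ and below 0 for KO against WT M2 cells. There the mitochondrially coded subunits have a median of 0.34 in batch 1, which is shown, and of −0.06 with all 27 libraries.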

How the data were processed

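The deposited table holds raw read counts per gene, which the authors made with Trimmomatic, FastQC, HISAT2, SAMtools and featureCounts from single-end QuantSeq 3′ reads of 75 bp. The build is mm39 in the submitters' notes and mm10 in the study's methods, and no coordinate from the counts is used. Reads shared with processed pseudogenes may be lost at mapping. Of 32 columns, 27 match a described library and 5 were not used. The counts were fitted for 24 batch 1 libraries in 8 groups with edgeR 4.0.16 (R 4.3.3, limma 3.58.1): TMM scaling, filterByExpr by group, robust quasi-likelihood test, Benjamini-Hochberg adjustment over 13614 genes, threshold 0.05. With all 27 libraries 13723 genes were tested. CPM values are TMM-scaled, and the heat map adds 2 CPM before the log2.

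Groups were taken from the labels. Over 33 pairs of libraries of a group, chi-square per degree of freedom was 2.11 to 178, so none was a duplicate. Precision is set by 7037684 to 9089792 counts per batch 1 library and 3 libraries per group. Alternatives were DESeq2 1.42.0, median-of-ratios and library-total scaling, no filter on low counts, the replicate number as a block, only the groups compared, 27 libraries with and without a batch term, and each library left out. A limit of 2% on mitochondrial rRNA, the fit of libraries numbered 2 to 4 and 2 of the interactions were chosen after seeing the data. The genes and lists were chosen with earlier results of these data known. The genes given library by library were, in each of 12 comparisons and 2 interactions, the 2 that passed with the largest absolute log2 fold change and the largest that passed in the other direction, with the highest, the lowest and the X-linked gene. The choice of further genes was made with their values in view. The values of 1 of the 46 genes are counted but not reported by themselves here. The fit was tested on simulated data.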

Additional observations from a re-analysis of the deposited data

Results flagged for a closer look

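Among 72 groups of 4 libraries examined for 23 named genes and for the sum of the 46 genes, 9 held a library farther from the rest than Dixon's 95% limit allows, where chance gives about 1 in 20 groups (3.6). The batch 2 library of KO M2 in control medium accounted for 4, with Ndufc2 at 135.529 CPM (the others 190.6 to 197.8), Ndufa13 at 207.022 CPM (254.6 to 259.7), Ndufaf8 at 72.9259 CPM (39.3 to 44.8) and Ndufa2 at 507.423 CPM (230.4 to 265.5). The batch 2 library of KO M2 in MPNST-CM had Ndufb8 at 314.595 CPM (191.1 to 202.7) and Ndufa4 at 223.275 CPM (137.3 to 151.2). Batch 2 of WT Mφ in control medium had Ndufv3 at 113.742 CPM (127.9 to 130.7). Within batch 1, the second replicate of KO M2 in MPNST-CM had Ndufa6 at 334.957 CPM (267.2 to 278.6) and Ndufa2 at 306.558 CPM (294.4 to 295.3). These values are on the scale of the 27-library fit.

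Responses that differed between groups by an interaction test (edgeR) were those to MPNST-CM by genotype, with 6 genes in Mφ, among them Ndufs8 (−0.524059, adjusted p = 0.0213) and Ndufb3 (0.52315, adjusted p = 0.0140), and 14 in M2 cells, among them Ndufs5 (0.830948, adjusted p = 0.0139) and Ndufb3 (0.748836, adjusted p = 0.000659). The response to IL-4 by genotype differed for 5 genes and the response of WT cells to MPNST-CM by cell type for 22.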

How the results depend on the processing

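Counts of genes that passed are compared here. DESeq2, median-of-ratios scaling and the replicate block moved none of the 16 counts by over 1.5 times, and no value reversed. With all 27 libraries the counts for MPNST-CM against control medium were 8 in WT Mφ, 3 in WT M2 and 1 in KO M2, those for KO against WT 1 in Mφ in control medium and 3 in M2 in MPNST-CM, those for M2 against Mφ 3 in KO in control medium, 4 in WT in MPNST-CM and 0 in KO in MPNST-CM, and those for the interactions 0 (genotype and medium, Mφ), 1 (genotype and medium, M2), 0 (genotype and IL-4) and 4 (medium and IL-4). With a batch term the count for MPNST-CM in WT Mφ stayed within 1.5 times, and the other 11 were, in the same order, 3, 1, 1, 4, 2, 5, 0, 0, 1, 0 and 7. On library totals they were 6 (MPNST-CM, WT M2), 18 (MPNST-CM, KO M2), 7 (KO, Mφ control), 6 (M2, WT control), 15 (M2, KO control), 25 (M2, WT MPNST-CM), 10 (M2, KO MPNST-CM), 3 (genotype and IL-4) and 9 (medium and IL-4). Without the filter they were 8 (MPNST-CM, WT M2), 5 (M2, KO control), 6 (genotype and medium, M2) and 14 (medium and IL-4). With only the groups compared they were 8 (MPNST-CM, WT Mφ), 2 (M2, WT MPNST-CM) and 13 (medium and IL-4). Under 2% mitochondrial rRNA they were 9 (MPNST-CM, WT M2), 10 (M2, KO MPNST-CM) and 13 (medium and IL-4). With batch 1 libraries numbered 2 to 4 they were 5 (M2, WT MPNST-CM), 10 (M2, KO MPNST-CM) and 9 (genotype and IL-4), the other 13 staying within 1.5 times. The cause was not tested. Where edgeR left 0 genes with all 27 libraries, those at an unadjusted p under 0.05 numbered 5 (M2, KO MPNST-CM), 4 (genotype and medium, Mφ) and 13 (genotype and IL-4). Where none was higher in batch 1, they numbered 0 (KO, M2 control; DESeq2 adjusted 0), 0 (MPNST-CM, WT M2; 0) and 2 (M2, KO MPNST-CM; 0), and where none was lower 1 (MPNST-CM, WT Mφ; 1) and 1 (genotype and medium, M2; 0). Leaving out 1 library gave, for MPNST-CM, 8 to 18 (WT Mφ), 8 to 16 (KO Mφ), 5 to 20 (WT M2) and 6 to 11 (KO M2), for KO, 1 to 5 (Mφ control), 14 to 18 (Mφ MPNST-CM), 15 to 24 (M2 control) and 8 to 12 (M2 MPNST-CM), for M2, 18 to 26 (WT control), 4 to 9 (KO control), 7 to 13 (WT MPNST-CM) and 2 to 8 (KO MPNST-CM), and for the interactions 2 to 6, 7 to 17, 2 to 7 and 14 to 24.

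Replicate numbers were not taken as pairs, since the labels name nothing shared and not every pair of the same number correlated above 0.1: over 77 such pairs the deviations had a mean correlation of 0.126 (−0.277 to 0.587), against −0.0519 over 175 other pairs. As a hint from the data, 13 of 23 libraries correlated best with their own number. WT M2 in control medium has no replicate 1. With the replicate block 18 genes were lower in KO M2 cells in control medium. With 3 libraries per group, a p that missed the threshold does not show that levels were equal.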
